A study of Mus musculus with 6 samples.

Results

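Endothelial identity genes were examined in RNA sequencing of mouse white adipose tissue. They are a set of 33 genes for junction proteins, surface receptors, secreted and matrix proteins, cytoplasmic proteins and transcription factors that mark the cells lining blood and lymph vessels. The genes were taken by symbol from a list chosen with earlier results of these data known. All 33 were matched to 1 Ensembl identifier each among the 22040 genes of the table. The control group, CTR, held 3 samples from mice given saline intraperitoneally, and the Rb1 group held 3 samples from mice that received 14 mg/kg of ginsenoside Rb1, a saponin from ginseng root, each day by the same route. The title links Rb1, obesity and myostatin, and the design asks which adipose transcripts differ after Rb1. The labels name no strain, genotype, age, sex, fat depot, diet or duration, and do not say whether the samples of a group came from separate mice.

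Fat is densely supplied with capillaries that deliver and take up lipids. Endothelial cells are held together by VE-cadherin and claudin junctions, and their identity is maintained by transcription factors of the ETS family, such as ERG, and of the SoxF group, which is made up of SOX7, SOX17 and SOX18. They sense blood flow and lipid signals through receptors such as S1PR1, and they relax the underlying smooth muscle with nitric oxide made by the synthase that Nos3 encodes. In bulk tissue such as this, fewer cells of a type and less RNA per cell cannot be told apart.

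Total counts ran from 15440339 to 24501446 per sample. Against the labelled tissue, 8 of 8 mature adipocyte markers passed the expression filter, with a summed level of 4478 to 5890 FPKM. FPKM, the unit of level used throughout, is a count scaled by library size and by a length per gene, whose source was not stated. CTR replicate 2 carried transcripts of skeletal muscle, since 14 muscle markers took 3.16% of its counts and 0.0048% to 0.0492% of those of the other 5 samples. Rb1 replicate 1 stood apart in the endothelial genes themselves, as described next, so the estimates of single genes are given with and without it.

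No endothelial gene passed the test of Rb1 against CTR, and most of the difference between the group means came from 1 sample. In edgeR's quasi-likelihood test across 14093 genes, 0 of the 33 had a Benjamini-Hochberg adjusted p under 0.05, and their adjusted p ran from 0.318 to 0.999. At that threshold edgeR called 0.0071% of all tested genes higher and 0% lower. DESeq2 also called 0 of the 33, where it called 0.559% of genes higher and 2.08% lower. At an unadjusted edgeR p under 0.05, 5 of the 33 were higher (15.2%), against 4.01% of all tested genes, and 0 were lower, against 7.54%. DESeq2 had 8 higher at an unadjusted p under 0.05, against 3.71% of genes, and 0 lower, against 5.94%. With limma on log2(FPKM + 0.1) both counts were 0, against 2.82% and 7.53%. The estimate was positive for 31 of 33 genes, against 51.3% of all tested genes, and the median log2 fold change was 0.27, against 0.01 for all. Without Rb1 replicate 1 the median was 0.10, 23 were positive, and 3 of 33 were higher at an unadjusted edgeR p under 0.05, against 4.53% of genes in that fit, with 0 lower, against 7.44%. The count depended on other samples too. It was 3 without CTR replicate 1, 2 without CTR replicate 2 and 4 without CTR replicate 3, against 2.19%, 2.64% and 4.76% of all genes. Leaving out Rb1 replicate 2 gave 11, against 3.07%, and leaving out Rb1 replicate 3 gave 4, against 3.05%.

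The summed level of the 33 genes showed the same sample. It was 895, 741 and 831 FPKM in CTR replicates 1, 2 and 3, and 1322, 745 and 889 FPKM in Rb1 replicates 1, 2 and 3. Group means were 823 ± 77.2 and 985 ± 300 FPKM (SD, n = 3 each), a ratio of 1.2, and the ratio was 0.993 without Rb1 replicate 1. Rb1 replicates 2 and 3 lay within the range of the controls, and Rb1 replicate 1 lay above all other samples. That library held the highest value for 26 of the 33 genes, where it held the highest value for 25.7% of all tested genes. CTR replicate 1 was highest for 5, against 28.4% of all genes. Rb1 replicates 2 and 3 were highest for 1 each, against 14.0% and 7.66%, and CTR replicates 2 and 3 for 0, against 16.8% and 7.48%. The lowest values were shared by CTR replicate 2 and Rb1 replicate 2, with 13 genes each, against 14.7% and 27.8% of all tested genes, and 7 members were lowest in the other 4 samples.

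**Figure D1:**
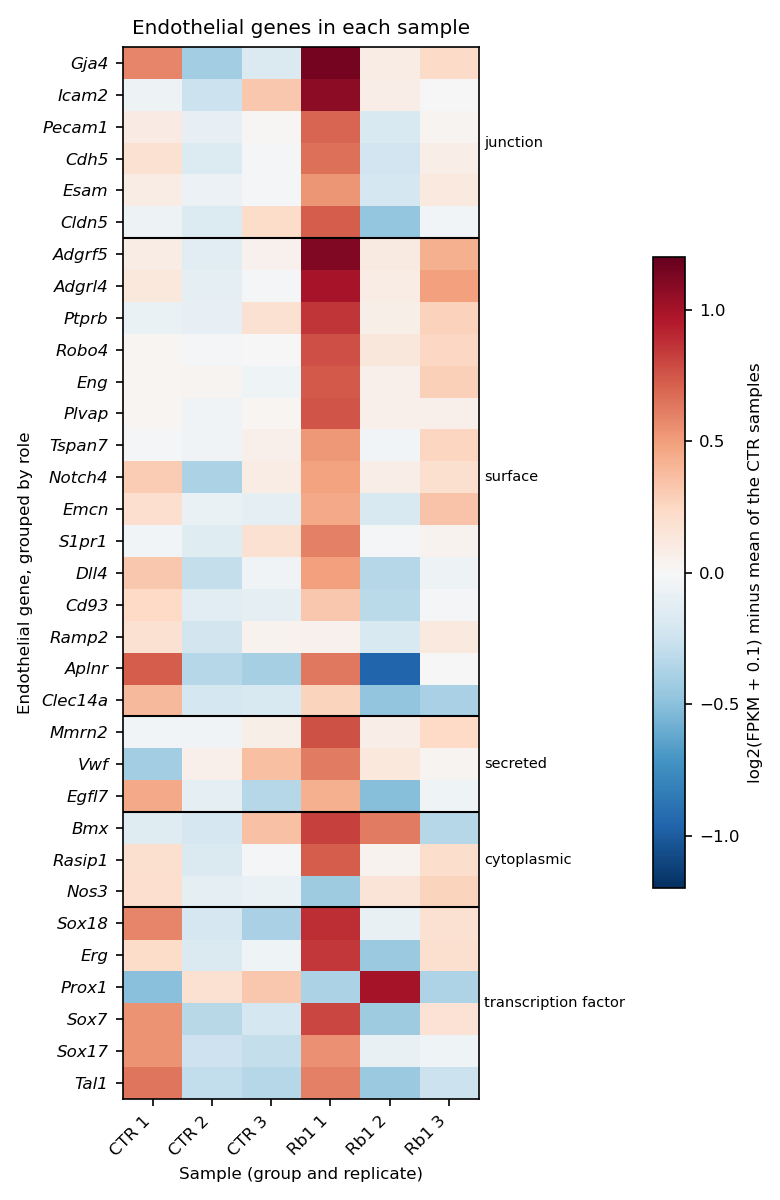
Heat map of the 33 endothelial genes (rows, grouped by role) in the 6 samples (columns), coloured by log2(FPKM + 0.1) minus the mean of the CTR samples. The column of Rb1 replicate 1 is high for most genes, with a median of 0.66 on this log2 scale, and CTR replicate 1 is high for the SoxF genes, Tal1, Aplnr, Egfl7, Clec14a and Gja4.

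FPKM differed widely among the members, and its order across genes depends on a length divisor whose source was not stated. In controls the median member stood at 13.3 FPKM, against 3.65 FPKM for all tested genes. Cdh5, the VE-cadherin gene, had the highest value at 138 ± 16.6 FPKM, followed by Cldn5 at 106 ± 15.1, S1pr1 at 69.0 ± 8.23 and Plvap at 58.9 ± 1.47 FPKM (SD, n = 3 each). Pecam1, Adgrf5 and Cd93 came next at 42.9 ± 2.96, 41.5 ± 3.31 and 39.6 ± 5.93 FPKM, and those 3 did not differ beyond their spread. The lowest were Tal1 at 0.595 ± 0.287 and Prox1 at 0.204 ± 0.0845 FPKM. All 33 passed the expression filter, and the smallest count of any member in any sample was 21.

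The junction genes illustrate how far 1 sample set the difference. Cdh5 stood at 156, 123 and 136 FPKM in CTR replicates 1, 2 and 3 and at 218, 118 and 146 FPKM in Rb1 replicates 1, 2 and 3. The groups overlapped, with Rb1 replicate 2 the lowest of all samples and Rb1 replicate 1 the highest. Its log2 fold change was 0.24 (SE 0.21, edgeR adjusted p = 0.711), and 0.02 without Rb1 replicate 1. Pecam1, which encodes the adhesion molecule CD31 of endothelial cells, platelets and leukocytes, stood at 45.8, 39.9 and 43.0 FPKM in CTR and 69.4, 37.9 and 43.9 FPKM in Rb1. It had the same order at the extremes, and its log2 fold change went from 0.26 to 0.02 when that sample was left out. Cldn5, the tight junction claudin of endothelium, stood at 101, 94.5 and 123 FPKM in CTR and 176, 77.0 and 104 FPKM in Rb1. Its log2 fold change of 0.18 became -0.15 without Rb1 replicate 1. Esam, an adhesion molecule of endothelial junctions, had 0.21 and 0.05. Icam2, a leukocyte ligand at endothelial contacts, had 0.48 and 0.10. Gja4, the gap junction protein connexin 37 of arterial endothelium, had the largest estimate of the class, 0.55 (SE 0.34, edgeR adjusted p = 0.603), and 0.20 without Rb1 replicate 1. It stood at 9.19, 4.49 and 5.35 FPKM in CTR and 13.6, 6.46 and 7.12 FPKM in Rb1. Replicate 1 was the highest sample of both groups for Gja4, and the groups overlapped. Over the 6 junction genes the median was 0.25 with all samples and 0.03 without Rb1 replicate 1. At an unadjusted edgeR p under 0.05, 0 of the 6 were called, where 4.01% of all tested genes were higher and 7.54% lower.

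Among the 15 surface and signalling genes lay 4 of the 5 with an unadjusted edgeR p under 0.05. Robo4, a roundabout receptor that stabilises vessels, stood at 9.89, 9.66 and 9.79 FPKM in CTR and 16.8, 10.8 and 11.6 FPKM in Rb1. The control values were close together and all lay below the 3 Rb1 values. The log2 fold change was 0.45 (SE 0.15, unadjusted p = 0.018, edgeR adjusted p = 0.318), a mean of 9.78 ± 0.116 against 13.1 ± 3.26 FPKM (SD, n = 3 each). Without Rb1 replicate 1 it was 0.28 with an edgeR adjusted p of 0.372.

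Adgrf5 and Adgrl4, adhesion G protein-coupled receptors of endothelium (Adgrl4 is also known as Eltd1), had the largest estimates of all 33 genes. Adgrf5 stood at 44.0, 37.8 and 42.8 FPKM in CTR and 89.4, 44.6 and 55.9 FPKM in Rb1. The lowest Rb1 sample was just above the highest control, and Rb1 replicate 1 was far above the rest. The log2 fold change was 0.64 (SE 0.23, edgeR adjusted p = 0.367), and 0.36 without Rb1 replicate 1. Adgrl4 stood at 25, 21.1 and 22.7 FPKM in CTR and 45.6, 24.3 and 32.1 FPKM in Rb1. Its groups overlapped in FPKM through Rb1 replicate 2, and did not overlap after TMM scaling. The log2 fold change was 0.60 (SE 0.20, edgeR adjusted p = 0.319) and 0.39 without Rb1 replicate 1. In DESeq2, Adgrl4 and Adgrf5 had the smallest adjusted p of the set, 0.110 and 0.130.

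Eng, the endoglin co-receptor for BMP and TGF-beta ligands, stood at 23.4, 23.7 and 22.3 FPKM in CTR and 38.7, 24.2 and 28.4 FPKM in Rb1, with no overlap. Its log2 fold change was 0.43 (SE 0.15, edgeR adjusted p = 0.367), and 0.27 without Rb1 replicate 1. Plvap, which forms the diaphragms of fenestrae and caveolae, stood at 59.8, 57.2 and 59.8 FPKM in CTR and 99.0, 61.3 and 61.5 FPKM in Rb1. Its groups did not overlap either, although Rb1 replicates 2 and 3 lay just above the controls, and its unadjusted p was 0.0743 in edgeR. Its estimate was 0.36, and 0.15 without Rb1 replicate 1. Counting Mmrn2, described below, 5 of 33 genes had non-overlapping groups with Rb1 higher, against 5.48% of all tested genes, and 0 had them lower, against 10.5%. After TMM scaling, edgeR's adjustment for library composition, the higher count was 6, against 7.76%, and the lower count 0, against 9.71%.

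For 17 of the 33 genes RefSeq gave a promoter window on GRCm38.p6, 250 bases before to 50 bases after a transcript start, and some genes had several windows. The windows were searched on both strands for 3 cores of factors that are themselves members or their relatives, the ETS core AGGAAG, the SOX core AACAAT and the TAL1 E-box CAGATG. The ETS core was in 10 of 24 member windows (41.7%), against 35.4% of all 32851 windows. The SOX core was in 2 (8.33%, against 10.7%) and the E-box in 5 (20.8%, against 17.2%), so the shares in members lay near those of all genes. Of the 5 genes with an unadjusted p under 0.05, Robo4, Adgrl4, Adgrf5 and Eng had a window, and each held the ETS core. The match in Robo4 lies in transcribed sequence by GENCODE and is not shown. The 250 bases before the start of the other 3, free of annotated exons, are shown because these genes had an unadjusted p under 0.05 and a match upstream of the gene. They lie on the plus strand at chr3:151437632-151437881 (Adgrl4), chr17:43360181-43360430 (Adgrf5) and chr2:32646345-32646594 (Eng), are written 5′ to 3′, and have matches in capitals. Adgrl4 and Eng have the E-box and the ETS core, in Eng the latter on both strands, and Adgrf5 has the ETS core. A match on the other strand reads CTTCCT for the ETS core, while for the E-box it reads CATCTG. A match describes letters and not binding.
Adgrl4: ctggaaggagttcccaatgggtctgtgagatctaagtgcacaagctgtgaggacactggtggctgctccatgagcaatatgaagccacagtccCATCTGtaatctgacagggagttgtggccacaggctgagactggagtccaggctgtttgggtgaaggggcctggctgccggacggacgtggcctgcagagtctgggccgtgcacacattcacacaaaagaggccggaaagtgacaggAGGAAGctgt
Adgrf5: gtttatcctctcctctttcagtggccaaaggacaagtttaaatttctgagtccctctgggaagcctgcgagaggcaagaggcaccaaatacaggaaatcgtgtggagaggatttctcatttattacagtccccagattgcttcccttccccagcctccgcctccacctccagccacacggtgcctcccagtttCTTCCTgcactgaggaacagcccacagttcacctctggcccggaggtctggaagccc
Eng: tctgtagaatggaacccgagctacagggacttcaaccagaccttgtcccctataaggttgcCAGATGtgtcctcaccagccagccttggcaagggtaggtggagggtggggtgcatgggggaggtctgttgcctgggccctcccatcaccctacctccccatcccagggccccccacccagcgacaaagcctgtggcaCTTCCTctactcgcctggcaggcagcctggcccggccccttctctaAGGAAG

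On GRCm38, in GENCODE M21, Robo4 (ENSMUSG00000032125) lies at chr9:37401897-37415115 on the plus strand. Adgrf5 (ENSMUSG00000056492) lies at chr17:43360451-43459557, Adgrl4 (ENSMUSG00000039167) at chr3:151437887-151545086, Eng (ENSMUSG00000026814) at chr2:32646595-32682669 and Mmrn2 (ENSMUSG00000041445) at chr14:34375465-34404287, all on the plus strand. Eng shares exon positions with Fpgs on the opposite strand, which stood at 1.55 to 2.14 FPKM. Ramp2, Prox1, Sox17, Egfl7, Dll4, Nos3 and Rasip1 share exon positions with another annotated gene as well, which makes 8 of 33, and no source here states whether the counting used strand. Strand would not separate Ramp2 from Vps25, Rasip1 from Izumo1 or Egfl7 from Gm20532, which lie on the same strand. Vps25 stood at 5.32 to 11.1 FPKM, highest in Rb1 replicate 3, so Ramp2 is uncertain to that extent. Izumo1 stood at 0.122 to 0.213 FPKM.

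The remaining 10 surface genes had an unadjusted edgeR p over 0.05 and overlapping groups. Ptprb, the endothelial phosphatase VE-PTP that acts on Tie2 and VE-cadherin, had a log2 fold change of 0.46 (edgeR adjusted p = 0.445), and 0.25 without Rb1 replicate 1. S1pr1, the receptor for sphingosine 1-phosphate, stood at 67.3, 61.7 and 77.9 FPKM in CTR and 104, 68.4 and 70.7 FPKM in Rb1. Rb1 replicates 2 and 3 lay within the control range, and the estimate was 0.26 with that sample and 0.09 without it. Tspan7, a tetraspanin, had 0.30, Notch4, a Notch receptor of endothelium, had 0.28, and Emcn, a sialomucin of venous and capillary endothelium, had 0.27. They had 0.21, 0.20 and 0.19 without Rb1 replicate 1. Dll4, the Notch ligand of arteries and tip cells (0.09), Cd93, a C-type lectin family receptor also found on myeloid cells (0.05), and Ramp2, which pairs with the calcitonin receptor-like receptor to bind adrenomedullin (0.04), had estimates near 0, and -0.13, -0.08 and 0.06 without that sample. Ramp2 was among the few genes that did not peak in Rb1 replicate 1, at 15, 11.3 and 13.5 FPKM in CTR and 13.7, 11.7 and 14.3 FPKM in Rb1. Clec14a, a C-type lectin family receptor that binds multimerin 2, and Aplnr, the apelin receptor, were the 2 genes with negative estimates. Clec14a stood at 6.44, 4.22 and 4.30 FPKM in CTR and 5.92, 3.51 and 3.71 FPKM in Rb1 (log2 fold change -0.15, 95% interval -0.68 to 0.38). Aplnr stood at 28.2, 13.4 and 12.8 FPKM in CTR and 26.3, 8.68 and 16.9 FPKM in Rb1 (-0.03, 95% interval -1.02 to 0.97). For both, replicate 1 was the highest sample of each group, and leaving out CTR replicate 1 turned the estimates to 0.04 and 0.40. The values without Rb1 replicate 1 were -0.37 and -0.40.

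**Figure D2:**
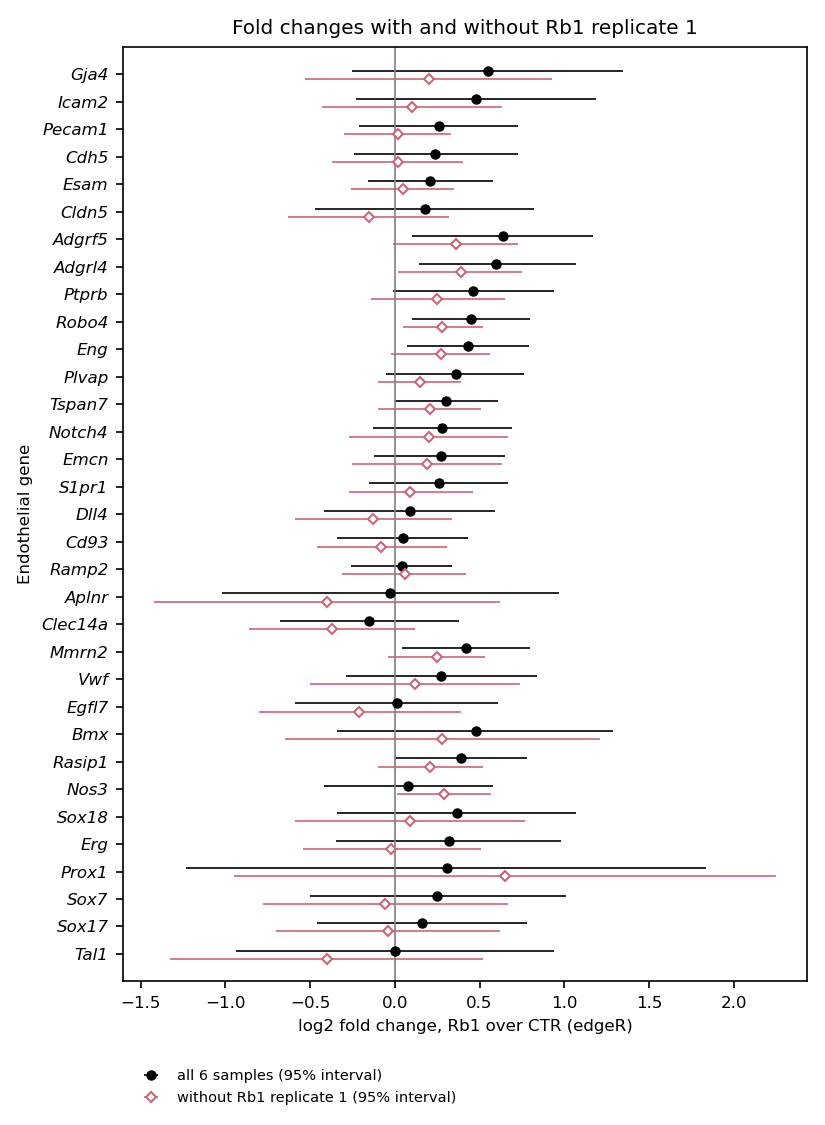
The edgeR log2 fold change of Rb1 over CTR (x axis) for each of the 33 genes (y axis) with all 6 samples (filled circles) and without Rb1 replicate 1 (open diamonds), with 95% intervals from the fit's t distribution. Most estimates are lower when that sample is left out, with a median of 0.27 against 0.10, while those of Nos3, Prox1 and Ramp2 are higher.

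Among the secreted and matrix proteins, Mmrn2, the endothelial matrix protein multimerin 2 that binds CLEC14A and CD93, was the member with an unadjusted p under 0.05. It stood at 29.1, 28.8 and 31.2 FPKM in CTR and 50.4, 31.3 and 35.1 FPKM in Rb1. The groups did not overlap, by the margin between 31.2 and 31.3 FPKM. The log2 fold change was 0.42 (SE 0.16, edgeR adjusted p = 0.402), and 0.25 without Rb1 replicate 1. Its receptors Clec14a and Cd93 had estimates of -0.15 and 0.05, as given above. Vwf, the von Willebrand factor made by endothelium and megakaryocytes, stood at 5.58, 7.83 and 9.62 FPKM in CTR and 11.5, 8.23 and 7.63 FPKM in Rb1, with CTR replicate 1 lowest. Its estimate was 0.27 (edgeR adjusted p = 0.727) and was 0.07 without CTR replicate 1 and 0.12 without Rb1 replicate 1. The summed level of 6 megakaryocyte and platelet markers was 16.1 to 20.0 FPKM in CTR and 14.6 to 19.9 FPKM in Rb1, and their part in the Vwf values was not tested. Egfl7, a secreted endothelial protein, stood at 12.7, 8.57 and 7.33 FPKM in CTR and 12.6, 6.50 and 8.99 FPKM in Rb1, an estimate of 0.01 (95% interval -0.59 to 0.61), and -0.21 without Rb1 replicate 1. Its exons overlap those of Agpat2, an acyltransferase abundant in fat on the opposite strand, which stood at 53.8 to 69.7 FPKM in CTR and 28.4 to 64.7 FPKM in Rb1, so Egfl7 is uncertain to that extent.

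Nos3, the endothelial nitric oxide synthase gene, went against most of the set in Rb1 replicate 1, as did Prox1, described below. It stood at 20.5, 16.5 and 16.9 FPKM in CTR and 13.3, 19.8 and 21.5 FPKM in Rb1, so the library with the highest value of most members held the lowest Nos3 value. Relative to the median of the 33 genes in the same library, Nos3 was -1.09 on the log2 scale in Rb1 replicate 1, where Prox1 was -1.04. In the other 5 samples Nos3 lay between -0.07 and 0.18. Its log2 fold change was 0.08 (SE 0.21, edgeR adjusted p = 0.927) with all samples and 0.29 without Rb1 replicate 1 (unadjusted p = 0.0423, edgeR adjusted p = 0.405). Nos3 shares exon positions with Atg9b, which was low, at 0.133 to 0.344 FPKM over the 6 samples. The other cytoplasmic members were Rasip1, which binds Rap1 and Ras and is needed for vessel lumens (log2 fold change 0.39, edgeR adjusted p = 0.436), and Bmx, a Tec family kinase of arterial endothelium (0.48, edgeR adjusted p = 0.660). Bmx was low, at 1.11, 1.07 and 1.61 FPKM in CTR and 2.27, 1.95 and 0.955 FPKM in Rb1, and its groups overlapped. Rasip1 was at 0.21 and Bmx at 0.28 without Rb1 replicate 1.

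For most of the transcription factors the spread among the controls was wide beside the difference between the groups. Sox18 stood at 47.2, 27.1 and 23.9 FPKM in CTR and 58.1, 29.5 and 35.5 FPKM in Rb1. Sox7 stood at 15.5, 8.46 and 9.15 FPKM in CTR and 18.6, 7.83 and 12.0 FPKM in Rb1, and Sox17 at 2.36, 1.32 and 1.28 FPKM in CTR and 2.37, 1.48 and 1.53 FPKM in Rb1. For these 3 SoxF genes replicate 1 was the highest sample of each group, and CTR replicate 1 lay above Rb1 replicates 2 and 3. Their log2 fold changes were 0.37, 0.25 and 0.16, with edgeR adjusted p of 0.701, 0.824 and 0.869, and 0.09, -0.06 and -0.04 without Rb1 replicate 1. Tal1, a helix-loop-helix factor of blood and endothelial lineages, stood at 0.925, 0.437 and 0.421 FPKM in CTR and 0.900, 0.384 and 0.452 FPKM in Rb1, with an estimate near 0 (95% interval -0.94 to 0.94), and -0.40 without Rb1 replicate 1. The summed level of 6 erythroid markers, for cells that also use Tal1, was 374, 221 and 228 FPKM in CTR and 393, 376 and 600 FPKM in Rb1, and their part in the Tal1 values was not tested. Erg, the ETS factor of mature endothelium, had its highest value in Rb1 replicate 1 and its lowest in Rb1 replicate 2, as Cdh5, Pecam1 and Cldn5 did, at 5.28, 4.0 and 4.36 FPKM in CTR and 8.21, 3.28 and 5.18 FPKM in Rb1. Its estimate was 0.32 with all samples and -0.02 without Rb1 replicate 1.

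Most of the 33 genes were high together in Rb1 replicate 1, but they did not vary as 1 block within the control group. A fold of 1.5 between replicate 1 and the mean of replicates 2 and 3 was set after the values were seen. It was reached within the Rb1 group by 22 of 33 genes and by 11.8% of all tested genes. Other members, such as Esam at 1.49 and Eng at 1.47, lay just under it. Within the control group the fold of 1.5 was reached by 8 of 33 and by 7.28% of all tested genes. Those 8 were Aplnr, Clec14a, Egfl7, Gja4, Sox7, Sox17, Sox18 and Tal1, and all 8 reached it within the Rb1 group too, as did 2.42% of all tested genes. By contrast, Robo4, Eng, Plvap, Mmrn2 and Tspan7 were within a ratio of 0.968 to 1.02 in the control group. This range was set after the values were seen, and S1pr1, with overlapping groups, lay just outside it at 0.965. Of the genes within the range, all but Tspan7 had non-overlapping groups, and Adgrf5, which also had them, was at 1.09. Both traits use the same control values, and close controls make non-overlap easier, so no conclusion is drawn from their meeting. The transcription factors had a median of 0.54 on the log2 scale in CTR replicate 1 relative to the mean of the controls, and the junction genes 0.09. In Rb1 replicate 1 both were high, at 0.70 and 0.71.

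**Figure D3:**
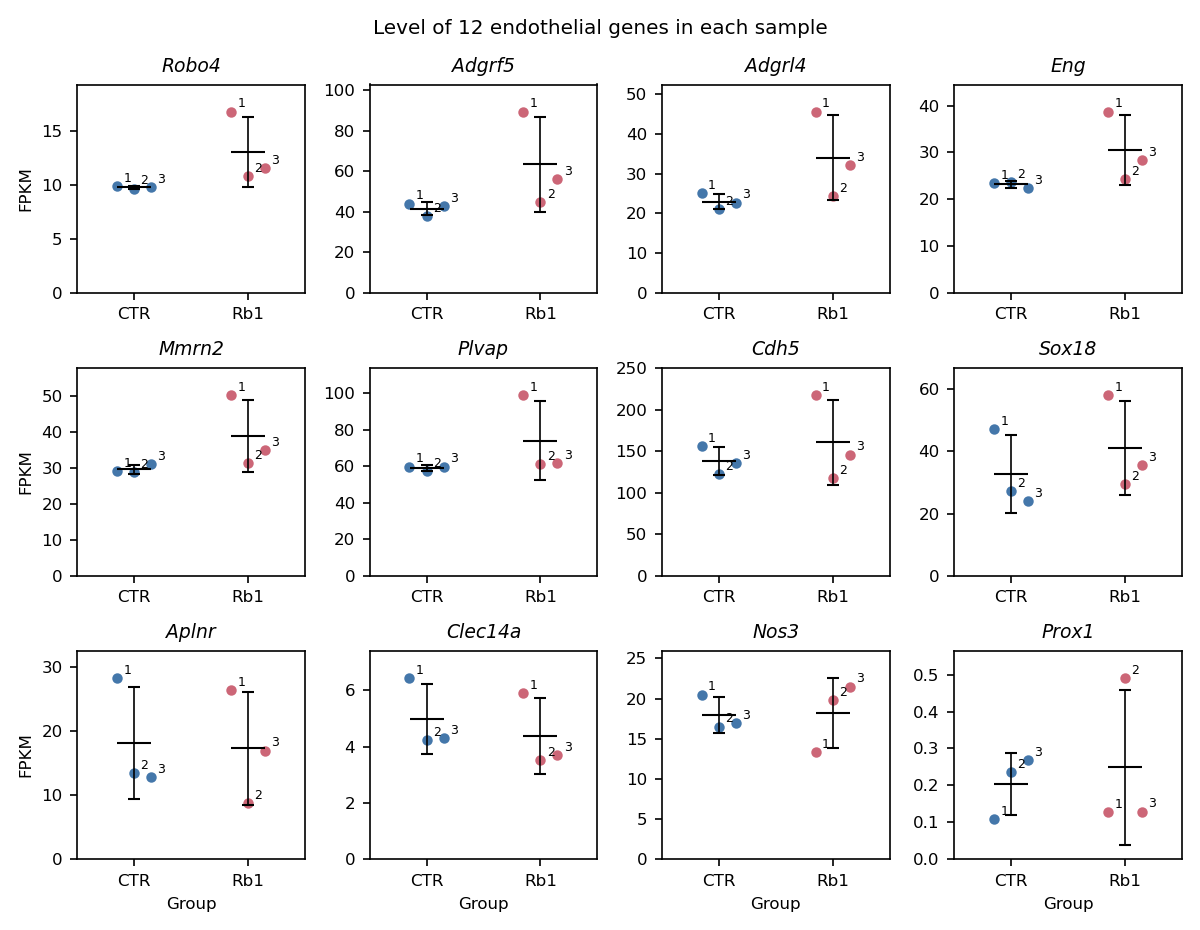
FPKM (y axis) of 12 endothelial genes in each sample of the CTR and Rb1 groups (x axis), with the replicate number beside each point and the mean and SD (n = 3) as bars. Rb1 replicate 1 is the highest point for Robo4, Adgrf5, Adgrl4, Eng, Mmrn2, Plvap, Cdh5 and Sox18, at 16.8 FPKM for Robo4 against at most 11.6 in the other samples, and it is the lowest for Nos3.

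Prox1, the transcription factor that specifies lymphatic endothelium, differed from most members in its pattern and had little depth. It stood at 0.108, 0.235 and 0.268 FPKM in CTR and 0.127, 0.491 and 0.129 FPKM in Rb1, with Rb1 replicate 2 highest, and its log2 fold change of 0.31 had a 95% interval of -1.23 to 1.84. Without Rb1 replicate 1 it was 0.65. Lyve1, a hyaluronan receptor of lymphatics and of some macrophages, stood at 8.57, 16.7 and 24.1 FPKM in CTR and 8.56, 26.7 and 21.9 FPKM in Rb1. Mmrn1, the multimerin of lymphatic endothelium, stood at 0.463, 1.19 and 1.34 FPKM in CTR and 0.747, 2.33 and 0.628 FPKM in Rb1. Lyve1 was chosen after its values were seen. Replicate 1 was the lowest control for Prox1, Lyve1 and Mmrn1, and Rb1 replicate 2 was the highest of all samples for the same genes. These extremes were not particular to lymphatic genes. Some adipose progenitor markers, such as Pi16 and Dpp4, had them too, and others did not. Other genes of the lymphatic list had another order. Flt4, the receptor for VEGF-C, stood at 3.56, 2.89 and 3.54 FPKM in CTR and 4.46, 3.52 and 3.14 FPKM in Rb1, highest in Rb1 replicate 1. Tbx1, a T-box transcription factor, stood at 0.677, 2.68 and 0.390 FPKM in CTR and 0.640, 0.401 and 0.804 FPKM in Rb1, highest in CTR replicate 2, the library with skeletal muscle transcripts, whose part was not tested. Of 8 tested genes in the lymphatic list, Prox1 left out, 0 had an unadjusted edgeR p under 0.05. Of all tested genes, 4.01% were higher and 7.54% lower at that p. The list's median log2 fold change was 0.12, and 0.29 without Rb1 replicate 1.

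Beyond the members, genes of the endothelial growth factor axis, also chosen with earlier results known, lay on the same side. All 13 had positive estimates, with a median log2 fold change of 0.38, and 0.31 without Rb1 replicate 1, against 0.01 for all tested genes. At an unadjusted edgeR p under 0.05, 6 of 13 were higher, against 4.01% of all tested genes, 0 were lower, against 7.54%, and 0 passed adjustment. Flt1, the VEGF receptor that also acts as a decoy, stood at 13.0, 12.4 and 14.0 FPKM in CTR and 24.3, 15.8 and 18.1 FPKM in Rb1 with no overlap (0.60, edgeR adjusted p = 0.253, DESeq2 adjusted p = 0.0225). Tek, the angiopoietin receptor Tie2 on which VE-PTP acts, stood at 16.7, 16.6 and 17.6 FPKM in CTR and 24.7, 20.3 and 19.6 FPKM in Rb1 (0.38, edgeR adjusted p = 0.269). Nrp1, a VEGF and semaphorin co-receptor, had 0.43 (edgeR adjusted p = 0.309). These 3 estimates were 0.45, 0.32 and 0.33 without Rb1 replicate 1.

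Other endothelial lists had lower medians. Of 26 tested surface, junction and cytoplasmic genes that are no members, 6 were higher and 0 lower at an unadjusted edgeR p under 0.05, against 4.01% and 7.54% of all tested genes, with a median of 0.22, and 0.09 without Rb1 replicate 1. Podxl, a sialomucin of the luminal surface, stood at 20.0, 19.1 and 18.9 FPKM in CTR and 28.1, 22.1 and 25.5 FPKM in Rb1 (0.42, edgeR adjusted p = 0.216, DESeq2 adjusted p = 0.0125). Jam2, a junctional adhesion molecule (0.37, edgeR adjusted p = 0.269), and Jup, the junction protein plakoglobin (0.60, edgeR adjusted p = 0.286), had no overlap between groups either. Podxl was at 0.39, Jam2 at 0.29 and Jup at 0.55 without Rb1 replicate 1. Of 17 transcription factors outside the set, 1 was higher and 2 were lower at an unadjusted edgeR p under 0.05, counts near the 4.01% and 7.54% of all tested genes, and the median was 0.02. These were Epas1, the hypoxia factor HIF-2 alpha (0.49), and Heyl, a Notch target (-0.51), and Lmo2, a partner of TAL1 (-0.44). Without Rb1 replicate 1 they were at 0.28, -0.47 and -0.31, and none of the 3 kept an unadjusted p under 0.05 (0.106, 0.1 and 0.132). Of the 16 capillary lipid and water transport genes, 2 were higher and 0 lower at an unadjusted edgeR p under 0.05. Of all tested genes, 4.01% were higher and 7.54% lower. The 2 were Car4, a carbonic anhydrase of the capillary surface (0.73, edgeR adjusted p = 0.341), and Rgcc (0.33, edgeR adjusted p = 0.357). The list's median was 0.16, and 0.08 without Rb1 replicate 1. Without Rb1 replicate 1 Car4 was at 0.43 and Rgcc at 0.30, with an unadjusted p of 0.0502 and 0.065. Aqp1, the endothelial water channel, was at 0.33, and 0.19 without that sample.

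The lists of endothelial activation, of arterial and tip cells and of venous cells had positive estimates for 8 of 12, 8 of 14 and 5 of 6 tested genes. Of all tested genes, 51.3% had a positive estimate. The medians of the lists were 0.19, 0.10 and 0.22, and 0.01, -0.0 and -0.01 without Rb1 replicate 1. The genes of smallest p in these lists, Lrg1 and Cxcr4, had negative estimates. Lrg1, a secreted glycoprotein of venous endothelium that other cells of fat may also make, stood at 255, 219 and 195 FPKM in CTR and 153, 146 and 161 FPKM in Rb1 (-0.49, edgeR adjusted p = 0.231, DESeq2 adjusted p = 0.0114). Cxcr4, a chemokine receptor of tip cells and of leukocytes, stood at 7.98, 7.37 and 7.69 FPKM in CTR and 5.66, 4.04 and 4.25 FPKM in Rb1 (-0.69, edgeR adjusted p = 0.184, DESeq2 adjusted p = 0.00695). The venous adhesion molecule Selp had 0.60 and the venous factor Nr2f2 0.42, and in the tip cell and arterial list Cxcl12 had 0.49 and Fbln5 0.32, all with an unadjusted p over 0.05. Leaving out Rb1 replicate 1 put Lrg1 at -0.45, Cxcr4 -0.80, Selp 0.23, Nr2f2 0.31, Cxcl12 0.24 and Fbln5 0.08. Among 24 tested partners of the members, Acvrl1, the BMP receptor ALK1 with which endoglin acts, was higher (0.54, edgeR adjusted p = 0.370). Ramp1, a relative of Ramp2, was lower (-0.76, edgeR adjusted p = 0.405), as was Sphk1, which makes the ligand of S1pr1 (-1.51, edgeR adjusted p = 0.274) at levels of at most 0.112 FPKM. These 3, 1 higher and 2 lower, had an unadjusted edgeR p under 0.05 and did not pass adjustment. Such counts among 24 genes lie near the 4.01% and 7.54% of all tested genes. The list's median was 0.10, and 0.05 without Rb1 replicate 1. Without that sample Acvrl1, Ramp1 and Sphk1 were at 0.50, -0.79 and -1.71, and the unadjusted edgeR p of Acvrl1 and Ramp1 was 0.0695 and 0.0702.

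Macrophage and adipose progenitor markers were low in Rb1 replicate 1, while pericyte, smooth muscle and mature adipocyte markers did not stand apart there. The 8 macrophage markers had a summed level of 1265, 1492 and 1124 FPKM in CTR and 713, 997 and 984 FPKM in Rb1. All 8 of 8 were lowest in Rb1 replicate 1, against 12.3% of all tested genes. The macrophage difference was not confined to that sample, with a median log2 fold change of -0.5, and -0.34 without it. Of the 8 macrophage markers, 7 were highest in CTR replicate 2, the library with skeletal muscle transcripts, against 16.8% of all tested genes. At an unadjusted edgeR p under 0.05, 5 of 8 were lower, against 7.54% of all tested genes, and 0 were higher, against 4.01%. Of 8 adipose progenitor markers, 6 were lowest in Rb1 replicate 1, with a summed level of 314 to 478 FPKM in CTR and 292 to 557 FPKM in Rb1. For pericytes, the mural cells of capillaries, 6 markers summed to 226, 179 and 174 FPKM in CTR and 207, 168 and 218 FPKM in Rb1. Of these markers 3 were highest and 1 was lowest in Rb1 replicate 1, against 25.7% and 12.3% of all tested genes. The 6 smooth muscle markers summed to 230 to 309 FPKM in CTR and 278 to 360 FPKM in Rb1, and mature adipocyte markers to 5007 to 5725 FPKM in CTR and 4478 to 5890 FPKM in Rb1. None of these markers was at 0 in all samples. The part of these cell types in the endothelial values was not tested.

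**Figure D4:**
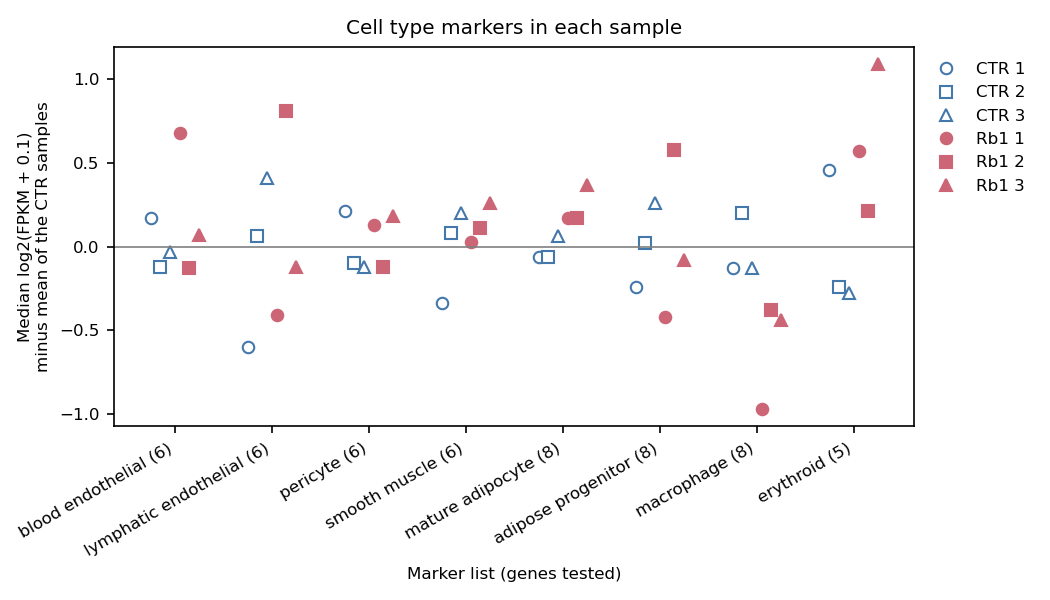
Median over the genes of 8 marker lists (x axis, number of genes tested in brackets) of log2(FPKM + 0.1) minus the mean of the CTR samples (y axis), with 1 symbol per sample (blue open for CTR, red filled for Rb1). Rb1 replicate 1 is the highest sample for blood endothelial markers, at 0.68, and the lowest for macrophage markers, at -0.97.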

How the data were processed

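White adipose RNA from 3 CTR and 3 Rb1 samples was sequenced. Per the submitters' processing notes, CASAVA 1.8, TopHat2 2.0.6 and the build mm10 were used. The counting tool, annotation, strand setting and filters were not stated in any source used here. Per the file headers, the authors deposited a raw read count and an FPKM for each Ensembl gene and sample. Within a gene, the FPKM was the count per column total divided by a constant (largest relative spread 0.00984% over 13169 genes). A library rich in a few transcripts therefore shows lower FPKM elsewhere. The source of that constant, a length, was not stated. For Sox17 it was larger than the gene's span in GENCODE M21, so ranks of genes by FPKM are uncertain.

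Counts were tested in R 4.3.3 with edgeR 4.0.16, using TMM factors, a minimum count of 10 and minimum total of 15, the quasi-likelihood test without covariates, and Benjamini-Hochberg adjustment over 14093 genes at a threshold of 0.05. Standard errors come from the F statistic, and 95% intervals from them and the t distribution of the fit. DESeq2 1.42.0, limma 3.58.1 on log2(FPKM + 0.1), other scalings, no filter, a replicate block and leaving out each sample were alternatives. Every pair of samples differed beyond sampling noise (chi-square per degree of freedom of at least 31.1). P-values set the difference between groups against the spread between samples within a group, which may be technical. The script was tested on simulated data with 100 genes changed 2-fold and 100 changed 4-fold. At an adjusted p under 0.05 edgeR recovered 39 and 93 of them, with 15 false calls. DESeq2 recovered 69 and 95, with 58 false calls. A change under 2-fold, as estimated for the members, could therefore be missed by edgeR.

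The members and lists were chosen with earlier results of these data known. Sample values are given for members with an unadjusted p under 0.05 or non-overlapping groups, and for the member of highest FPKM and the most changed of each role. Others were added after their values were seen. From each context list up to 3 genes with the smallest p were named, apart from a gene that is not reported here. Symbols and coordinates came from GENCODE M21 and promoter sequences from RefSeq, both on GRCm38.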

Additional observations from a re-analysis of the deposited data

How the results depend on the processing

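No member passed adjustment under any alternative run, in edgeR, DESeq2 or limma. Of 495 values of single members under alternatives, 47 had the opposite sign to the value with all samples, in 14 of the 33 genes, and 19 genes kept their direction. Leaving out 1 sample at a time moved the median log2 fold change of the members between 0.10 (without Rb1 replicate 1) and 0.40 (without Rb1 replicate 2), their ratio of summed levels between 0.993 and 1.34, and the number at an unadjusted p under 0.05 between 2 (without CTR replicate 2) and 11 (without Rb1 replicate 2). That number was 8 in DESeq2 (3.71% of all genes), 3 without normalization factors (2.82%), 0 in limma on log2(FPKM + 0.1) (2.82%) and 3 on replicates 2 and 3 of each group (2.84%). Over all genes edgeR called 1 higher and 0 lower, 1 to 2 higher and 0 to 2 lower without 1 sample, and 2 higher on replicates 2 and 3. DESeq2 called 80 higher and 297 lower, 34 and 142 without CTR replicate 2, and 108 and 328 without Rb1 replicate 1. DESeq2 without a sample and edgeR on replicates 2 and 3 alone were chosen after seeing the data.

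Leave-one-out ranges that crossed 0 were -0.15 to 0.39 for Cldn5, -0.06 to 0.10 for Ramp2, -0.37 to 0.04 for Clec14a, -0.40 to 0.40 for Aplnr, -0.08 to 0.17 for Cd93, -0.13 to 0.23 for Dll4, -0.21 to 0.24 for Egfl7, -0.08 to 0.29 for Nos3, -0.02 to 0.57 for Erg, -0.06 to 0.54 for Sox7, -0.04 to 0.47 for Sox17, -0.40 to 0.43 for Tal1 and -0.67 to 0.65 for Prox1. In DESeq2 without Rb1 replicate 1, Cldn5 was at -0.16, Cd93 -0.08, Dll4 -0.13, Egfl7 -0.21, Erg -0.02, Sox7 -0.06, Sox17 -0.04 and Tal1 -0.41. In DESeq2 without CTR replicate 2, Ramp2 was at -0.06, Cd93 -0.01, Dll4 -0.04, Egfl7 -0.05 and Tal1 -0.17. Without normalization factors Ramp2 was at -0.01, Egfl7 -0.03 and Tal1 -0.03, and in limma Ramp2 at -0.0026, Cd93 -0.0022, Egfl7 -0.04, Nos3 -0.004 and Tal1 -0.04. On replicates 2 and 3 Cldn5 was at -0.22, Vwf -0.08 and Aplnr 0.02. The cause of these changes was not tested. After TMM scaling Rb1 replicate 3 was highest for 3 members and CTR replicate 1 lowest for 8.

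The replicate numbers were not shown to pair the samples, since same-numbered samples had correlations of deviations of 0.136, -0.109 and 0.018, and not every sample correlated best with its own number. With the replicate number as a block edgeR called 1 gene, 0 of the members, and 7 members had an unadjusted p under 0.05, against 3.68% of all genes, with a median of 0.25. Depth limited Prox1 most, with a count of 21 in its shallowest sample.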
